A study of Mus musculus with 12 samples.

Results

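Imprinted genes are transcribed mainly from the copy inherited from 1 parent. Here 10 of them, most linked to growth, were followed in the left ventricle (LV) of adult mice born to diabetic or non-diabetic mothers. These were Igf2, H19, Mest, Peg3, Plagl1, Cdkn1c, Grb10, Meg3, Snrpn and Impact. The members were chosen by name, with earlier results of these data known. Their Ensembl identifiers were looked up among the 46983 genes of the count files. All 10 were found, and all 10 were among the 14706 genes that passed the filter on low counts. The study asked how maternal diabetes, together with loss of 1 copy of Hif1a in the offspring, affects the transcriptome of the adult LV.

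RNA was taken from the LVs of 12 offspring at 12 weeks of age, 3 in each of 4 groups: Wt and Hif1a+/- offspring from non-diabetic pregnancy, and Wt and Hif1a+/- offspring from diabetic pregnancy. All were offspring of FVB mothers without the Hif1a mutation and Hif1a+/- fathers carrying the Hif1atm1jhu null allele on the FVB background, so that the mutated copy always came from the father, and the deletion was global. The diabetic mothers had been made diabetic with streptozotocin, a toxin of pancreatic beta cells. Hearts within a group came from more than 1 litter, the litter of each heart is not given in the sources used here, and hearts are named below by the animal number in their labels.

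Imprinting is set in the germ line, where differential DNA methylation marks the maternal or the paternal copy of a control region, and the mark is kept through embryonic life. Many imprinted genes fall into an opposing pattern in which paternally expressed genes promote fetal growth and maternally expressed genes restrain it, and most of them are strongly expressed before birth and shut down in the weeks after it. Igf2, Mest, Peg3, Plagl1, Snrpn and Impact are expressed from the paternal copy, and H19, Meg3, Cdkn1c and, outside the brain, Grb10 from the maternal copy. The libraries count reads of both copies together, so they hold no measure of imprinting itself.

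The 10 genes lie on 6 chromosomes in the GRCm38 assembly, and 5 of them are on chromosome 7. Igf2 (chr7:142650766-142666816, minus strand) and H19 (chr7:142575529-142578143, minus strand) are neighbours separated by 72622 bases. Cdkn1c (chr7:143458339-143461050), Peg3 (chr7:6703892-6730431) and Snrpn (chr7:59982495-60140219) are on the same chromosome, all on the minus strand. Mest is at chr6:30723547-30748465, Plagl1 at chr10:13060504-13131694, Grb10 at chr11:11930508-12038683, and Meg3 at chr12:109541001-109571726. Impact is given with its values.

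Several of these loci host microRNAs, and those of H19 and Igf2 are shown because these neighbours were the pair whose levels went together most closely. Mir675 lies in an exon of H19 (mature arms at chr7:142577112-142577133 and chr7:142577078-142577099) and Mir483 in an intron of Igf2 (chr7:142654968-142654989 and chr7:142654932-142654952). Mir335, in an intron of Mest, is shown through its 5p arm (chr6:30741314-30741336). The sequences are the mature miRNAs of RefSeq (GRCm38.p6), from 5′ to 3′, with the seed (bases 2 to 8) in capitals.
miR-675-5p: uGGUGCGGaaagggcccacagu
miR-675-3p: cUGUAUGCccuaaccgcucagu
miR-483-5p: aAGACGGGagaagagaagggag
miR-483-3p: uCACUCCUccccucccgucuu
miR-335-5p: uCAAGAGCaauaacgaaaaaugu
The 8 mature arms found in H19, Igf2, Mest and Meg3 had 8 different seeds, so none shared a seed with another. The counts of their precursors were 0 in all 12 libraries, and 3′-seq libraries of this kind are not a measure of small RNAs.

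RefSeq gave 17 promoter windows, each from 250 bases before to 50 after a transcription start, for 7 of the 10 genes. H19, Cdkn1c and Impact had no entry. The hexamer TGCCGC, the sequence bound in its methylated form by ZFP57, a zinc finger protein that maintains imprints in the embryo, was searched on both strands. It occurred in 7 of the 17 windows (41.2%), of which a pair from Mest overlap almost entirely, and in 11.6% of all 32851 windows of the same length. The shortest form of the HIF response element, ACGTG, was in 2 of the 17 windows (11.8%) against 19.6% of all windows, and GCGTG was in 7 (41.2%) against 32.4%. The windows with a TGCCGC match were from Igf2, Mest, Meg3, Plagl1, Grb10 and Snrpn. Those of Igf2 and Mest are shown as examples from genes described heart by heart below, with each match, on either strand, in capitals.
Igf2, chr7:142661222-142661521, minus strand: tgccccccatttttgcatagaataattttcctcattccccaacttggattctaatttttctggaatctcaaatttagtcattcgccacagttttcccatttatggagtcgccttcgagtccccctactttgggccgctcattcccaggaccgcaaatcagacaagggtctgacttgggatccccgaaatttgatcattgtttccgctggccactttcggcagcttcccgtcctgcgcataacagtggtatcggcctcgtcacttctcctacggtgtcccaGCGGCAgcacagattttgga
Mest, chr6:30737800-30738099, plus strand: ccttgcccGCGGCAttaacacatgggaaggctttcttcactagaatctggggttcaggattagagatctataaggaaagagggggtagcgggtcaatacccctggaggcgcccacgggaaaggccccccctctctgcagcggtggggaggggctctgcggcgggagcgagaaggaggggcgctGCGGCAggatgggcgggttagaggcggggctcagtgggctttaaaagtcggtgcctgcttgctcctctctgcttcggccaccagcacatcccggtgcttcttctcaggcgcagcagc
The Igf2 window held 1 match and 14 CG dinucleotides, and the Mest window held 2 matches and 17 CG dinucleotides. The median was 9 CG dinucleotides over the 17 windows of the members and 7 over all windows. These matches describe the letters of the windows, and no binding or methylation was measured in these libraries.

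Total counts ranged from 16132442 to 39812939 per library. The 6 cardiomyocyte markers (Myh6, Tnnt2, Actn2, Ryr2, Myl2 and Tnni3) were detected in every library and summed to between 57920 and 66840 counts per 1000000 (CPM, with the TMM library scaling of edgeR), as the tissue label says. Hif1a, the gene named by the genotype, was measured at 61.5 ± 8.96 CPM (SD, n = 3) and 55.3 ± 6.37 CPM in Wt LVs from non-diabetic and diabetic pregnancy, and at 85.7 ± 6.01 and 72.3 ± 8.49 CPM in the corresponding Hif1a+/- LVs. The level was thus higher, not lower, in the libraries labelled Hif1a+/-, and the difference over both pregnancies was 0.43 on the log2 scale (SE 0.0871, edgeR adjusted p = 0.596). No gene had a smaller adjusted p in this edgeR comparison. The study also lists Hif1a as upregulated in non-diabetic Hif1a+/- hearts. Since the reads come from 3′ ends and the deleted part of the gene is not given in the sources used here, the level of Hif1a does not check the genotype. The labels give all offspring as female, whereas the series' design text gives males. The Y-linked genes Ddx3y, Uty, Kdm5d and Eif2s3y summed to more than Xist in 11 libraries and to less in 1, diabetic Hif1a+/- replicate 72. In replicate 72 Xist was at 158.4 CPM and Ddx3y at 0.352, against 0.231 to 5.99 and 76.1 to 110.4 in the other 11 libraries. By these reads replicate 72 was female and the other 11 hearts male, so only the diabetic Hif1a+/- group held both sexes. For Igf2, H19, Mest, Peg3, Impact and Meg3, a difference between pregnancies is therefore also given without replicate 72. Fold changes between genotypes, the interaction, the other gene lists and the calls of DESeq2 and limma-voom are given only with replicate 72 included. Non-diabetic Wt replicate 25 stood apart in the summed level of 6 red cell genes, mostly globins, with 7437 CPM against 206.5 to 1808 in the other 11 libraries.

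The 10 genes were expressed at low to moderate levels in the adult LV. Per library, the number of reads counted ran from 74 to 241 for Plagl1, the gene with the fewest, and from 2141 to 5408 for Grb10, the gene with the most. Mean levels over the 12 libraries were 131.2 CPM for Grb10, 41.3 for Impact, 35.8 for Igf2, 34.3 for Snrpn, 21.3 for Cdkn1c, 17.4 for Peg3, 17.2 for H19, 10.7 for Mest, 9.44 for Meg3 and 5.41 for Plagl1. Divided by the length of the merged exons, the mean level per kilobase was highest in Snrpn (15.9 CPM per kilobase), Grb10 (14.4) and Cdkn1c (10.4), followed by Impact (8.05), H19 (7.01) and Igf2 (6.26). Mest (2.72), Peg3 (1.3), Plagl1 (0.692) and Meg3 (0.522) were the lowest on that scale. Since 3′ reads do not accumulate along a transcript, this division lowers the value of genes with long exons, such as Peg3 and Meg3.

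No member passed the threshold, an adjusted p of 0.1 over all 14706 genes in edgeR's quasi-likelihood test, in any of the 9 comparisons. The background was also 0 in each of the 9, that is, 0% of all genes were called. Between pregnancies, H19 and Igf2 had higher means and Mest, Peg3 and Impact lower means after diabetic pregnancy in both genotypes. Over both genotypes, 5 of the 10 genes had an unadjusted p under 0.05, whereas 11.3% of all genes did. Of these, 2 were higher (5.47% of all genes) and 3 were lower (5.82%). Because the members were chosen with earlier results of these data known, these shares are no test of the 10 genes as a set. The median size of the log2 difference was 0.31 over the 10 genes and 0.10 over all 14706 genes. For diabetic Hif1a+/- against diabetic Wt it was 0.118 in each, and in the interaction 0.0795 against 0.145. In the other comparisons with a fold change it was larger in the 10 genes. No matching for level of expression was done. DESeq2, another count test, called 2 of the 10 genes between pregnancies over both genotypes. These were Igf2 (adjusted p = 0.0634) and Impact (adjusted p = 0.0398), against 1.46% of the genes it tested. With limma-voom and sample weights 0 of the 10 were called, against 0.265% of all genes. In edgeR without a filter on low counts 5 were called (Igf2, H19, Mest, Peg3 and Impact), against 2.19% of 27093 genes. For any difference among the 4 groups, 3 of the 10 had an unadjusted p under 0.05 (Igf2, Peg3 and Impact, against 6% of all genes), and DESeq2 called Impact (0.76% of its genes). Limma-voom called none there, and edgeR without the filter called 4 of the 10 (2.54%). The study, which used DESeq2 with the same threshold, lists Impact among its differentially expressed genes, without a comparison or a direction. Impact is not in the study's narrower list, which was chosen by the size of the change.

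**Figure D1:**
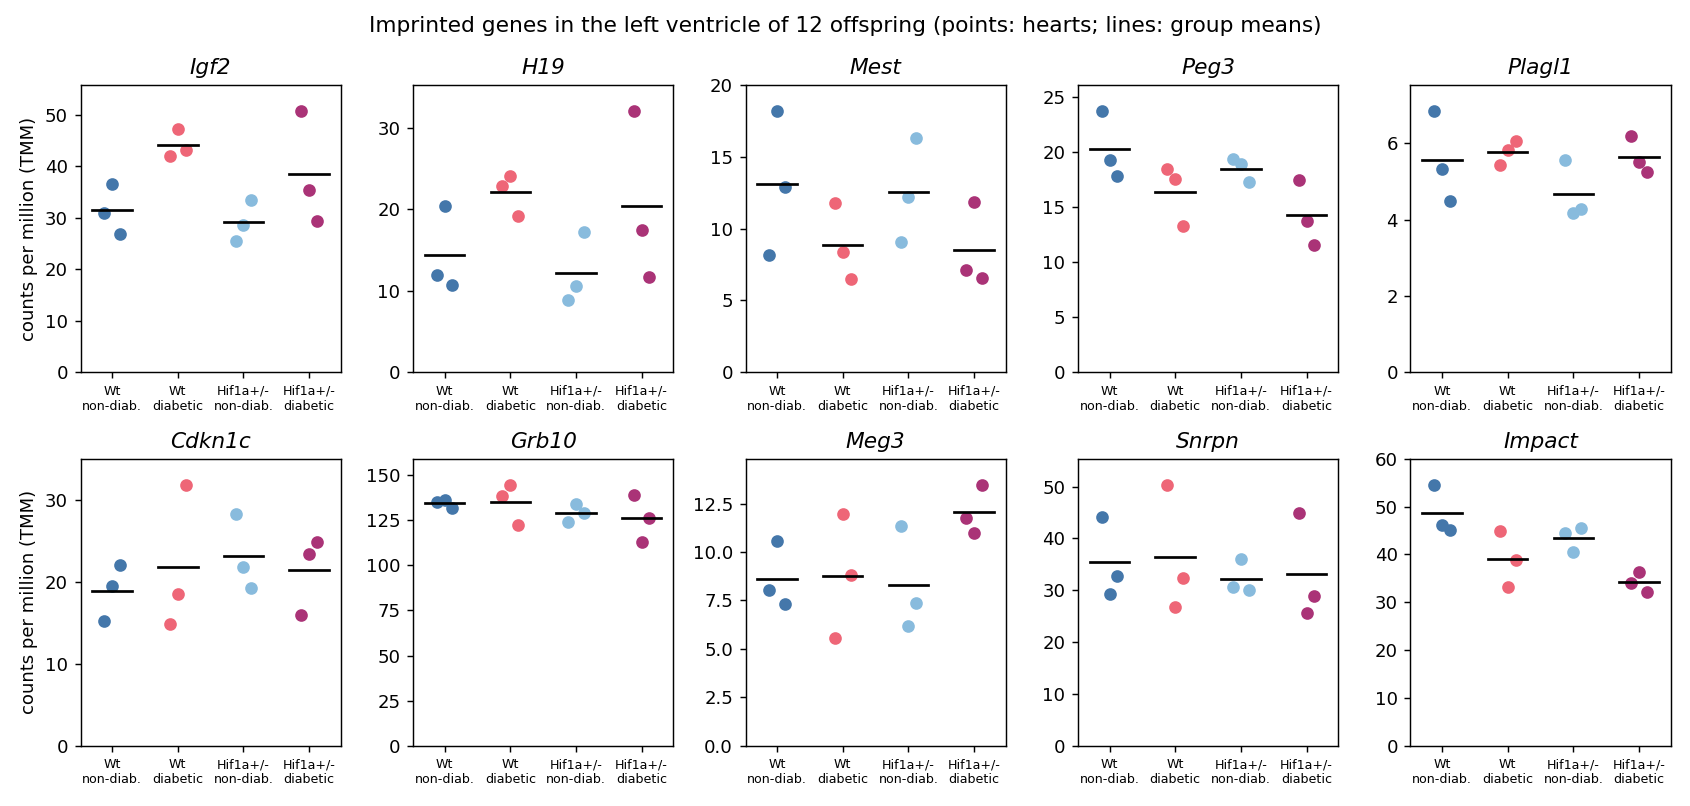
Level of each of the 10 imprinted genes in CPM (vertical axes, each starting at 0) in the 12 LVs, with 1 point per heart and a line at the mean of the 3 hearts of a group. In Impact the 3 diabetic points lie below the 3 non-diabetic points within Wt and within Hif1a+/-, and in Igf2 the 3 diabetic Wt points lie above the non-diabetic Wt points.

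Igf2, which encodes insulin-like growth factor 2, the main growth factor of the fetus, had more reads after diabetic pregnancy. In Wt its level was 31.0, 36.5 and 26.8 CPM in non-diabetic replicates 25, 42 and 89, and 41.9, 47.2 and 43.2 CPM in diabetic replicates 50, 7 and 80. All diabetic values lay above all non-diabetic values, which held for 5.54% of all genes in either direction in this comparison. In Hif1a+/- it was 25.4, 28.7 and 33.5 CPM in non-diabetic replicates 14, 32 and 44, and 50.8, 35.3 and 29.4 CPM in diabetic replicates 66, 72 and 77, and these groups overlapped. In edgeR the log2 difference was 0.49 in Wt (SE 0.177, adjusted p = 1) and 0.41 in Hif1a+/- (SE 0.177, adjusted p = 0.402). Over both genotypes the mean was 30.3 ± 4.19 CPM in the 6 non-diabetic and 41.3 ± 7.83 CPM in the 6 diabetic hearts, a log2 difference of 0.45 (SE 0.125, edgeR adjusted p = 0.282). Leaving out replicate 66, the highest, lowered the difference within Hif1a+/- to 0.15 (edgeR adjusted p = 0.699), and leaving out replicate 72 left 0.47. In the annotation used here 62.8% of the exon bases of Igf2 are shared with Gm49394, whose identifier is not among the genes counted.

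H19, a long noncoding RNA that shares its enhancers with Igf2 and is transcribed from the opposite parental copy, also had higher means after diabetic pregnancy. In Wt it was measured at 11.9, 20.4 and 10.7 CPM in non-diabetic and 22.9, 24.1 and 19.2 CPM in diabetic hearts. In Hif1a+/- it was measured at 8.88, 10.5 and 17.2 CPM in non-diabetic and 32.1, 17.4 and 11.6 CPM in diabetic hearts. The groups overlapped in both genotypes, and replicate 66 was again the highest of all 12. The log2 difference was 0.62 in Wt (SE 0.341, edgeR adjusted p = 1), 0.76 in Hif1a+/- (SE 0.343, edgeR adjusted p = 0.413) and 0.69 over both genotypes (SE 0.242, edgeR adjusted p = 0.347). Without replicate 66 the value in Hif1a+/- was 0.26 (edgeR adjusted p = 0.758) and over both genotypes 0.44 (edgeR adjusted p = 0.470). Without replicate 72 it was 0.87 in Hif1a+/- and 0.75 over both genotypes, and without replicate 42 it was 0.97 in Wt.

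The levels of Igf2 and H19 went together heart by heart. Over the 12 hearts the correlation of log2(CPM + 1) was r = 0.965 (permutation p = 2e-05, adjusted p = 0.0009 over the 45 pairs of the 10 genes), and Spearman's rho was 0.972 (permutation p = 1e-05, the smallest that 100000 resamples can give, adjusted p = 0.00045). Without the 2 hearts farthest from the median of Igf2, r was 0.944. The relation was as close within the groups, with r = 0.961 for the deviations from the group means, 0.962 over the 6 non-diabetic hearts and 0.956 over the 6 diabetic hearts. Among the 14705 other genes tested, H19 had the highest correlation with Igf2 and Igf2 the highest with H19. H19 reads came to between 34.9% and 63.1% of Igf2 reads in a library, lowest in non-diabetic Hif1a+/- replicate 14 and highest in diabetic Hif1a+/- replicate 66.

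**Figure D2:**
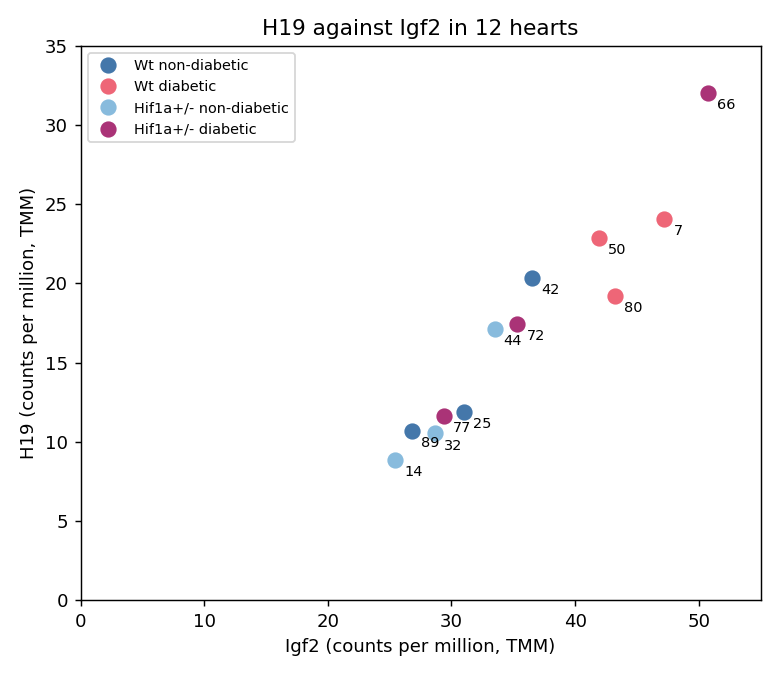
H19 (vertical axis) against Igf2 (horizontal axis), both in CPM on linear axes starting at 0, in the 12 LVs, coloured by group and labelled with the animal number. The hearts lie close to 1 rising line with r = 0.965 on the log2 scale, with diabetic Hif1a+/- heart 66 at its upper end and heart 77 among the non-diabetic hearts.

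Mest, Peg3 and Plagl1 are the other paternally expressed growth genes. Mest encodes an enzyme-like protein of the alpha/beta hydrolase fold that marks the embryonic mesoderm. Its level was 8.16, 18.2 and 12.9 CPM in non-diabetic Wt and 11.8, 8.34 and 6.46 CPM in diabetic Wt. In Hif1a+/- it was 9.04, 12.2 and 16.3 CPM without and 7.09, 11.9 and 6.54 CPM with maternal diabetes. The ranges overlapped in both genotypes. Over both genotypes the log2 difference was -0.56 (SE 0.224, edgeR adjusted p = 0.399), and it was -0.40 without replicate 42, the highest non-diabetic value, and -0.71 without replicate 72. Mest shares 912 exon bases with Copg2, a gene on the opposite strand with 12961 reads over the 12 libraries, and whether strand was used in the counting is not given in the sources used here.

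Peg3, a zinc finger protein that represses other genes of its family and affects growth and maternal behaviour, was measured at 23.7, 19.3 and 17.8 CPM in non-diabetic Wt and 18.4, 17.5 and 13.3 CPM in diabetic Wt hearts. In Hif1a+/- the values were 19.4, 18.9 and 17.3 CPM without and 17.4, 13.8 and 11.5 CPM with maternal diabetes. The diabetic range reached just into the non-diabetic range in each genotype. Between pregnancies Peg3 differed by -0.30 on the log2 scale in Wt (SE 0.163, edgeR adjusted p = 1), -0.37 in Hif1a+/- (SE 0.163, edgeR adjusted p = 0.405) and -0.33 over both genotypes (SE 0.116, edgeR adjusted p = 0.345). In Wt it was -0.17 without replicate 25 or without replicate 80, and in Hif1a+/- it was -0.24 without replicate 77 and -0.55 without replicate 66. Over both genotypes it was -0.27 without replicate 25, the library with the most globin reads and the highest Peg3, and -0.31 without replicate 72. Plagl1, a zinc finger transcription factor that regulates several other imprinted genes, ranged from 4.17 to 6.85 CPM in non-diabetic and from 5.26 to 6.19 CPM in diabetic hearts, with a log2 difference of 0.17 (SE 0.124, edgeR adjusted p = 0.603).

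Impact, which encodes an inhibitor of the amino acid sensing kinase GCN2 and lies at chr18:12955852-12992950, had the smallest p of the 10 genes. In Wt it was measured at 54.6, 46.1 and 45.1 CPM in non-diabetic and 44.9, 33.1 and 38.7 CPM in diabetic hearts. In Hif1a+/- the values were 44.5, 40.5 and 45.6 CPM in non-diabetic and 34.0, 36.3 and 32.1 CPM in diabetic hearts. Diabetic values lay below non-diabetic values in both genotypes without overlap, though in Wt the margin was narrow. In Hif1a+/-, groups without overlap were seen in 24.4% of all genes. For Impact the log2 difference was -0.32 in Wt (SE 0.115, edgeR adjusted p = 1), -0.35 in Hif1a+/- (SE 0.115, edgeR adjusted p = 0.299) and -0.34 over both genotypes (SE 0.0812, edgeR adjusted p = 0.238). In Wt it was -0.21 without replicate 7, the lowest Wt value. Over both genotypes it was -0.28 without replicate 25, the highest value, and -0.35 without replicate 72.

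Snrpn, which encodes a core protein of the spliceosome in brain and heart, ranged from 29.4 to 44.2 CPM in non-diabetic and from 25.6 to 50.3 CPM in diabetic hearts. The log2 difference was 0.05 (SE 0.170, edgeR adjusted p = 0.934), with a 95% confidence interval from -0.32 to 0.41. Its count is uncertain, because 27.3% of its exon bases are shared on the same strand with Gm38393 and Snurf, and Snurf had 0 reads in all libraries.

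The maternally expressed members other than H19 were Cdkn1c, Grb10 and Meg3. Cdkn1c, the cell cycle inhibitor p57, was measured at 15.2, 19.5 and 22.1 CPM in non-diabetic Wt and 14.9, 18.5 and 31.8 CPM in diabetic Wt hearts. In Hif1a+/- its values were 28.3, 21.8 and 19.2 CPM without and 15.9, 23.4 and 24.8 CPM with maternal diabetes. The 4 ranges overlapped, and the log2 difference between pregnancies was 0.03, with a 95% confidence interval from -0.36 to 0.42 (edgeR adjusted p = 0.955). Grb10, an adaptor that restrains signalling from the insulin and IGF1 receptors, was the most abundant and the most even member, between 113.1 and 144.6 CPM in all hearts. Its log2 difference was -0.01, with a 95% confidence interval from -0.15 to 0.12 (edgeR adjusted p = 0.949), the narrowest of the 10 genes.

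Meg3, a long noncoding RNA of the Dlk1 locus, was measured at 8.03, 10.6 and 7.32 CPM in non-diabetic Wt and 5.58, 12.0 and 8.80 CPM in diabetic Wt hearts. In Hif1a+/- it was measured at 11.3, 6.2 and 7.39 CPM without and 11.7, 11.0 and 13.5 CPM with maternal diabetes. The diabetic Hif1a+/- hearts were the most even group, and a single non-diabetic Hif1a+/- heart, replicate 14, reached into their range. The log2 difference was 0.03 in Wt (SE 0.265, edgeR adjusted p = 1) and 0.53 in Hif1a+/- (SE 0.261, edgeR adjusted p = 0.438), and the difference between these, tested as the interaction, was 0.49 (SE 0.372, edgeR adjusted p = 0.998). The difference in Hif1a+/- was 0.60 without replicate 72, 0.82 without replicate 14 and 0.37 without replicate 32. The 6 macrophage markers, all detected in every library, summed to 216.6 to 330.3 CPM in diabetic Hif1a+/- hearts, against 109.6 to 170.5 in non-diabetic Hif1a+/-, 152.4 to 249.3 in diabetic Wt and 144.5 to 202.4 in non-diabetic Wt. By staining of LV sections, the study found the number of macrophages increased only in diabetic Wt, not in diabetic Hif1a+/-. Those were counts of stained cells, a measure unlike these sums of RNA. The 6 fibroblast markers, also all detected, summed to 728.1 to 1270 CPM in diabetic Hif1a+/-, 642.4 to 820.7 in non-diabetic Hif1a+/-, 563.6 to 734.5 in diabetic Wt and 562.7 to 847.7 in non-diabetic Wt. The value of 1270 was that of replicate 72, and the other diabetic Hif1a+/- hearts were at 728.1 and 992.1. The part of the macrophage and fibroblast markers in the values of Meg3 and of the other members was not tested. In bulk tissue fewer cells of a type cannot be told apart from less RNA per cell.

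**Figure D3:**
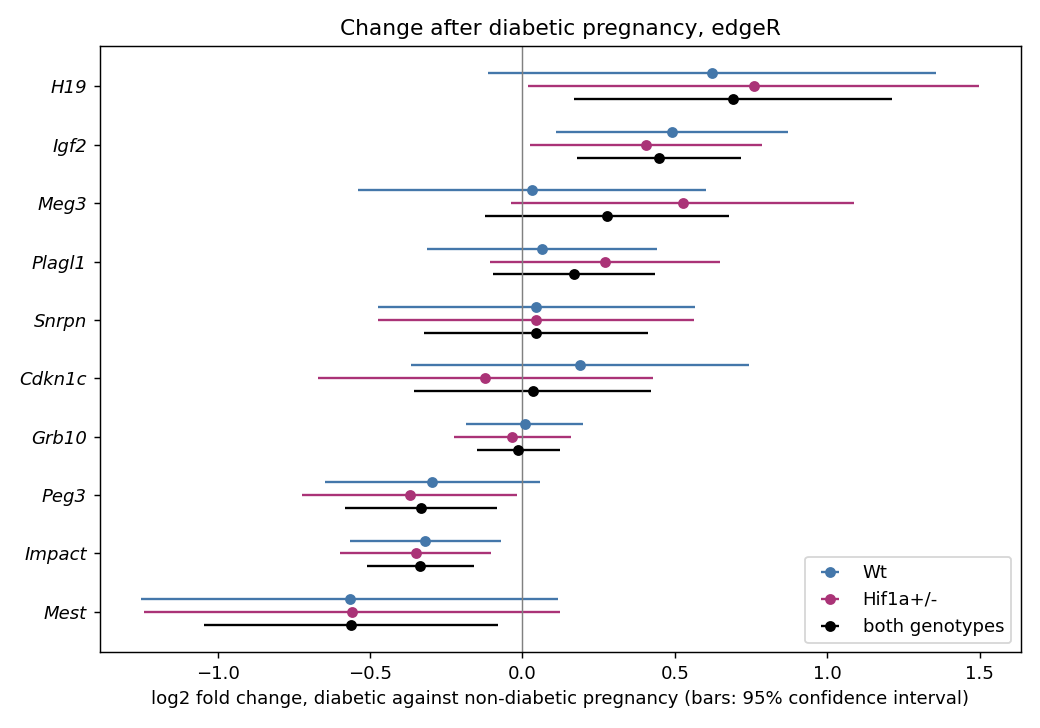
Log2 fold change of the 10 genes between diabetic and non-diabetic pregnancy (horizontal axis) in Wt, in Hif1a+/- and over both genotypes, with bars for the 95% confidence interval of the edgeR fit. Over both genotypes the intervals of H19 and Igf2 lie above 0 and those of Peg3, Impact and Mest below 0, and none of the 10 passed an adjusted p of 0.1.

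Within a single genotype fewer members reached an unadjusted p under 0.05. In Wt these were Igf2 and Impact, 2 of the 10 genes against 2.78% of all genes, and 0 of the 10 passed the threshold in edgeR, in DESeq2 (0.0148% of its genes) or in limma-voom. Without the filter edgeR called Igf2 and H19 in Wt, against 0.476% of the genes. In Hif1a+/- they were Igf2, H19, Peg3 and Impact, 4 of the 10 against 12% of all genes, and 0 passed in edgeR or in DESeq2 (1.44% of its genes). Without the filter edgeR again called Igf2 and H19 in Hif1a+/-, against 2.19% of the genes. With limma-voom and sample weights, 2 passed in Hif1a+/-, Impact (adjusted p = 0.0777) and Meg3 (adjusted p = 0.0836), in a fit that called 6.37% of all genes. In the interaction of genotype and pregnancy, 0 of the 10 genes had an unadjusted p under 0.05, against 2.52% of all genes, and 0 passed in edgeR, DESeq2 or limma-voom. The interaction of H19 was 0.14 on the log2 scale (SE 0.482, 95% confidence interval from -0.90 to 1.17) and that of Impact -0.03 (SE 0.162, from -0.38 to 0.32).

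Between genotypes the largest difference within a pregnancy was that of Meg3 in diabetic hearts, 0.45 on the log2 scale (SE 0.259, edgeR adjusted p = 0.862). In non-diabetic hearts, between Hif1a+/- and Wt, 0 of the 10 genes had an unadjusted p under 0.05 (0.959% of all genes), and in diabetic hearts 0 of 10 (5.35%). Over both pregnancies it was again 0 of 10 (2.69%). No member passed in any of these comparisons with edgeR, with DESeq2 (0.00369%, 0.155% and 0.0259% of its genes in the same order) or with limma-voom (0%, 0.0068% and 0%). The mean level of all 6 paternally expressed members was lower in Hif1a+/- than in Wt within each pregnancy and over both in the edgeR fit, whereas 50.8% of all genes were higher in Hif1a+/- in non-diabetic hearts, 47.9% in diabetic hearts and 48% over both. Of the 4 maternally expressed members, 3 were also lower within each pregnancy and 2 over both. The median of the 6 paternal log2 differences was -0.14 over both pregnancies, none of the 6 passed, and the 6 genes are not independent of each other. Impact was the closest, at 43.8 ± 7.26 CPM in 6 Wt and 38.8 ± 5.57 CPM in 6 Hif1a+/- hearts, a log2 difference of -0.17 (SE 0.0811, edgeR adjusted p = 0.999).

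Hearts with both the mutation and maternal diabetes were also compared with those with neither, a comparison that shares its samples with the ones above. The log2 difference was -0.51 for Impact (SE 0.115, edgeR adjusted p = 0.318) and -0.50 for Peg3 (SE 0.163, edgeR adjusted p = 0.475), the only members with an unadjusted p under 0.05 (2 of 10, against 8.85% of all genes). The groups did not overlap for Impact, Peg3 and, in the upward direction, Meg3, 3 of the 10 genes against 14.6% of all genes. Without replicate 72 the log2 difference was -0.55 for Impact and -0.47 for Peg3. DESeq2 called Impact alone in this comparison (adjusted p = 0.0360), against 0.453% of its genes, limma-voom called 0 of the 10 (0.0136% of all genes), and edgeR without the filter called 4 (H19, Mest, Peg3 and Impact, against 1.64%).

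**Figure D4:**
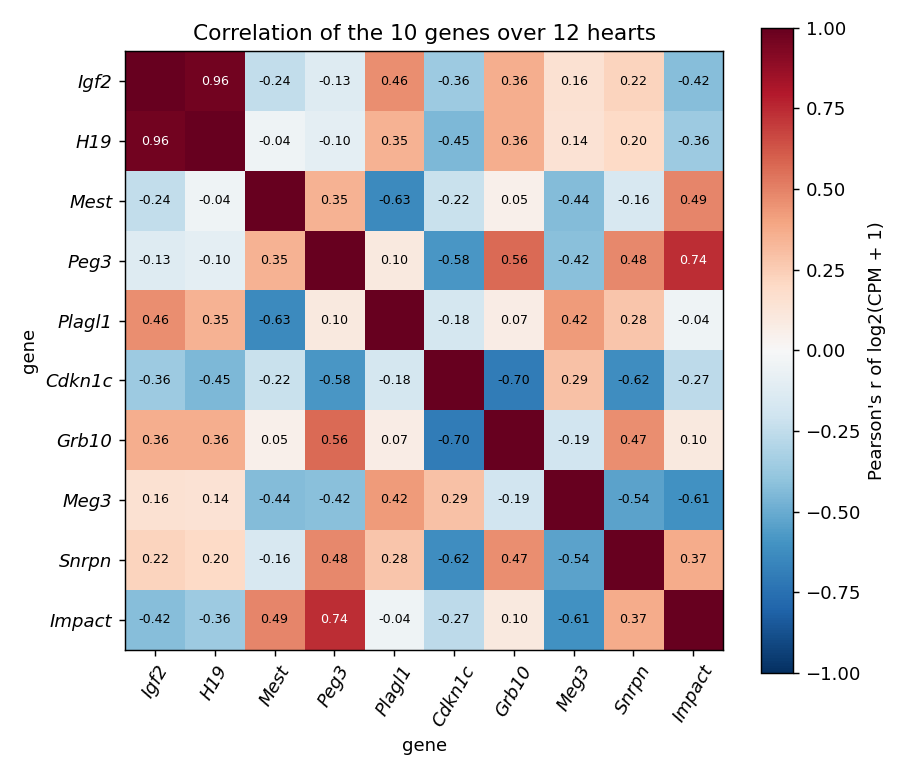
Pearson's r of log2(CPM + 1) over the 12 hearts for each pair of the 10 genes, with red for positive and blue for negative values. The Igf2 and H19 cell is the strongest, the next positive value is that of Peg3 and Impact at 0.738, and the most negative is that of Cdkn1c and Grb10 at -0.70.

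Outside Igf2 and H19, the members did not rise and drop as 1 block. Of the 45 pairs, 23 had a positive r, and Igf2 and H19 were the only pair with an adjusted permutation p of r under 0.1. Peg3 and Impact had the next highest r, 0.738 (adjusted permutation p = 0.122). Cdkn1c and Grb10 had an r of -0.70 (adjusted permutation p = 0.149) and a Spearman's rho of -0.825 (adjusted permutation p = 0.0304). Across all genes tested, and as a description over 12 libraries that share their sequencing and depth differences, the genes most like Mest were Fam83d (r = 0.950), Apln (r = 0.940), which encodes the peptide hormone apelin, and Ccna2 (r = 0.931), the S phase and mitotic cyclin A2. The genes most like Igf2 after H19 were Amigo2 (r = 0.865) and a gene without a symbol in the annotation used (r = 0.839), and those most like H19 after Igf2 were Cdc5l (r = 0.878) and Gm42670 (r = 0.860). Those most like Peg3 were Lmbrd2 (r = 0.935), Pik3ca (r = 0.932) and Rbm41 (r = 0.932), and those most like Impact were Zfp260 (r = 0.933), Gm5898 (r = 0.920) and Tbc1d19 (r = 0.90). Meg3 was most like Inpp5d (r = 0.923), Il17ra (r = 0.914) and Slc18b1 (r = 0.913), of which Inpp5d encodes the lipid phosphatase SHIP1 of blood cells. Plagl1 was most like Tgfbr3 (r = 0.872), Smpd3 (r = 0.864) and Slc4a3 (r = 0.849), and Snrpn was most like Ptp4a2 (r = 0.946), Ssbp2 (r = 0.933) and Ptgr2 (r = 0.932). Cdkn1c was most like Gm12216 (r = 0.945), Anxa7 (r = 0.935) and Setmar (r = 0.933), and Grb10 was most like Hccs (r = 0.920), Grpel2 (r = 0.889) and Mrgbp (r = 0.886).

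Other imprinted genes were read from the same fit. Of 51 found in the files, 36 passed the filter on low counts, and 0 passed the threshold in any comparison in edgeR. Between pregnancies over both genotypes, 6 of the 36 had an unadjusted p under 0.05, against 11.3% of all genes. Among the paternally expressed ones, Ndn, the growth suppressor necdin, was higher by 0.29 on the log2 scale (SE 0.0955, edgeR adjusted p = 0.327) and the amino acid transporter Slc38a4 was lower, at -0.27 (SE 0.102, edgeR adjusted p = 0.379). Nap1l5 had a log2 difference of -0.16 (SE 0.293, edgeR adjusted p = 0.845). Between genotypes over both pregnancies Nap1l5 was lower in Hif1a+/-, at -0.85 (SE 0.291, edgeR adjusted p = 0.999), on 3 to 14 reads per library. Among the maternally expressed ones Rian, a noncoding RNA of the same cluster as Meg3, was higher by 0.39 (SE 0.129, edgeR adjusted p = 0.325), Asb4 was higher by 0.41 (SE 0.141, edgeR adjusted p = 0.345), and Ppp1r9a was lower, at -0.34 (SE 0.0968, edgeR adjusted p = 0.283). Rian was measured at 5.52 to 6.78 CPM in non-diabetic Wt, 6.51 to 10.1 in diabetic Wt, 5.75 to 7.67 in non-diabetic Hif1a+/- and 8.22 to 9.24 in diabetic Hif1a+/- hearts, and its diabetic and non-diabetic Hif1a+/- hearts did not overlap, as for 24.4% of all genes.

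Of 15 genes of the IGF axis, 13 passed the filter and 0 passed the threshold in edgeR. The 3 with an unadjusted p under 0.05 between pregnancies over both genotypes (against 11.3% of all genes) were Igfbp3, Igfbp4 and Igfbp6, which encode extracellular proteins that bind IGFs, and all 3 were higher after diabetic pregnancy. The other binding proteins tested were Igfbp5, with a log2 difference of 0.14 (SE 0.0852, edgeR adjusted p = 0.539), and Igfbp7, with 0.05 (SE 0.102, edgeR adjusted p = 0.859). Igfbp4 was measured at 104.6 to 111.0 CPM in non-diabetic Wt, 106.9 to 136.0 in diabetic Wt, 92.8 to 110.9 in non-diabetic Hif1a+/- and 141.0 to 169.5 in diabetic Hif1a+/- hearts. Its groups overlapped in Wt and not in Hif1a+/-, where 24.4% of all genes had groups without overlap, and the log2 difference over both genotypes was 0.35 (SE 0.0746, edgeR adjusted p = 0.154). The study lists Igfbp4 among the genes upregulated in diabetic Hif1a+/- hearts against non-diabetic Wt. The log2 difference was 0.50 for Igfbp3 (SE 0.190, edgeR adjusted p = 0.379) and 0.42 for Igfbp6 (SE 0.149, edgeR adjusted p = 0.355). The receptors differed less, with log2 differences of -0.01 for Igf1r (SE 0.227, edgeR adjusted p = 0.994) and -0.07 for Igf2r (SE 0.0748, edgeR adjusted p = 0.724), the receptor that clears IGF2.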

How the data were processed

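RNA from 12 LVs was made into 3′-seq libraries and sequenced on a NextSeq instrument. The authors trimmed reads with Trimmomatic, discarded reads of ribosomal or mitochondrial origin, mapped what was left to GRCm38 with STAR 2.5.2b, and obtained gene counts with HTSeq from a GENCODE annotation. The deposited counts are whole numbers per gene without normalization, and the 5 tally lines below them were left out. The authors also deposited normalized counts, a signal in which each count is divided by a DESeq2 size factor of its library, used here only as an alternative. Reads that overlap several genes were left unassigned by that counting.

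Total counts were 16132442 to 39812939. Gene names and positions came from a later GENCODE annotation of GRCm38, where 46488 of the 46983 identifiers had a symbol. The main test was edgeR 4.0.16 (R 4.3.3) on the counts: TMM, default filter by group (14706 genes), quasi-likelihood fit of 4 group means with 8 residual degrees of freedom, Benjamini-Hochberg adjustment over all genes and a threshold of 0.1. Values shown are TMM-scaled CPM, ± is SD, and SE is of the log2 fold change. The biological coefficient of variation was 13.7%, and in all 12 pairs of libraries from the same group the chi-square per gene, 5.14 to 42.4, exceeded that of sampling. The edgeR p values rest on a spread per gene, estimated over all 12 hearts around their group means and moderated towards that of other genes. Permutation p values of the correlations shuffle all 12 hearts without regard to group. The edgeR test was simulated on 14706 genes for diabetic against non-diabetic Wt, with 200 genes changed and each gene drawn independently. It recovered 48% of 1.5-fold and 84% of 2-fold changes and called 16 unchanged genes. Variation shared by genes within a library was not simulated, so these shares need not hold for the real hearts. Correlations used log2(CPM + 1) and 100000 resamples (Python 3.11.15, scipy 1.17.1).

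Alternatives were DESeq2 1.42.0, its size factors within edgeR, no filter, a threshold of 0.05, limma-voom 3.58.1 with sample weights, only the 2 groups compared, the deposited normalized counts, a pseudocount of 0.1 and leaving out each library. The members and lists were chosen with earlier results of these data known. All 10 members are named, and from the other lists the genes past the threshold or, with none, the 3 with the smallest p for any difference among the 4 groups, and for each member the 3 genes most like it. Igf1r and Igf2r were added after their values were seen.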

Additional observations from a re-analysis of the deposited data

How the results depend on the processing

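The count of members past the threshold was 0 in edgeR and changed with the test and the filter. Without a filter on low counts it was 2 in Wt (diabetic against non-diabetic pregnancy), 2 in Hif1a+/-, 4 in diabetic Hif1a+/- against non-diabetic Wt, 5 over both genotypes and 4 for any difference among the 4 groups. With DESeq2 it was 1 in diabetic Hif1a+/- against non-diabetic Wt (Impact), 2 over both genotypes and 1 for any difference, and with limma-voom 2 in Hif1a+/-. The cause was not tested. Without each library in turn, with DESeq2 size factors in edgeR or with a threshold of 0.05 it was 0 in all 9 comparisons. Of 434 alternative values of 25 fold changes and correlations, 423 had the direction reported and 11 the other, all in Cdkn1c, Snrpn and Grb10. Between pregnancies over both genotypes, Cdkn1c was -0.012 with limma-voom. Leaving out 1 library, the log2 difference ranged from -0.15 to 0.14 in Cdkn1c, -0.10 to 0.14 in Snrpn and -0.052 to 0.029 in Grb10. The same ranges were 0.44 to 0.87 in H19, 0.32 to 0.53 in Igf2, -0.39 to -0.28 in Impact, -0.42 to -0.27 in Peg3, -0.71 to -0.40 in Mest, and 0.13 to 0.43 in Meg3. The number of correlated pairs of members ranged from 1 to 3, with 3 without diabetic Hif1a+/- replicate 66 and 2 without diabetic Wt replicate 7 or replicate 80, and r of Igf2 and H19 from 0.952 to 0.976. No analysis paired by litter was possible because the litter of each heart is not given in the sources used here. The lowest count of any member in a library was 74 reads, in Plagl1, and how much of the error of each member came from counting was not tested.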
